A study of Mus musculus with 6 samples.

Results

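Collagen genes were described across cultured cells of the mouse retinal pigment epithelium (RPE) and choroid. The members were the 44 genes, of 52636 in the count table, whose symbol is Col, a number, the letter a and a number. Male C57BL/6J mice of 12 to 16 months were the source of all cells. The 3 Dram2 wt/wt samples were compared with 3 Dram2 ko/ko samples, which came from a CRISPR/Cas9 knockout strain lacking exon 4 of Dram2. RPE and choroid were dissociated and kept in culture for a week before single-cell RNA sequencing, so all groups are models of cultured cells. The labels name the tissue choroid, and they do not say whether the samples of a genotype came from separate mice or cultures, so p-values measure only the spread between these samples, which may be technical. Dram2 ko/ko replicate 3 was the only sample of batch 2 and the other 5 samples were batch 1, so batch and that sample cannot be told apart.

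Collagens are extracellular proteins in which 3 polypeptide chains wind into a triple helix. The chains are hydroxylated and folded in the endoplasmic reticulum, and after secretion the fibrillar collagens are trimmed and cross-linked into fibrils, while the type IV chains assemble into the sheet-like network of basement membranes. In the outer eye these proteins build the choroidal stroma, the vessel walls and Bruch's membrane, the layered sheet between the RPE and the choroidal capillaries.

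The 25428 cells held between 96808998 and 122746184 UMIs (unique molecular identifiers, each standing for 1 counted RNA molecule) per sample. The authors had divided them into 8 cell types, and the 4 fibroblast types together into 9 sub-clusters numbered 1 to 9. Levels are given as CPM, a gene's UMIs divided by those of all genes in the same sum of cells and scaled to 1e+06. The libraries count each molecule once at its 3′ end, so levels of different genes were not divided by length. The intervals given with log2 changes come from the spread between samples. The cells were grouped on their expression, collagens included, so differences between cell types or sub-clusters are descriptions over samples, without a test.

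The labels of the cell types were compared with marker genes. The Endothelial cells held 6821 CPM of 6 endothelial markers, with Emcn at 4366 CPM. The cells named Pericyte had 0 UMIs of the pericyte genes Kcnj8, Higd1b and Ndufa4l2 and 1 UMI of Abcc9. They held 199 CPM of Cspg4, and also 407 CPM of Ngfr and 179 CPM of Sox10, both Schwann cell genes. The data thus go against this name, and the type is written below as the Pericyte-labelled cells. The RPE cells were marked by Krt18 at 710 CPM and Otx2 at 87.4 CPM, whereas Rpe65, the retinoid isomerase of mature RPE, had 17 UMIs in all. Over 10 RPE markers the sum was 819 CPM, so most of it was Krt18 and the other markers were low. In the RPE type, Dram2 ko/ko replicate 3 stood apart. Its summed level of 10 RPE markers was 294 CPM, against 506 CPM in Dram2 wt/wt replicate 2 and 867 to 1103 CPM in the other 4 samples.

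Of the 44 members, 43 had at least 1 UMI and Col6a6 had 0. A group of 5 members had a mean of 500 CPM or more over the 6 samples, 5 lay between 100 and 500 CPM, 8 between 10 and 100 CPM, 10 between 1 and 10 CPM and 16 under 1 CPM. The 5 highest members took 75.6% of all collagen UMIs and the 10 highest took 95.2%. Together the members made up 0.517% ± 0.045 (SD, n = 6) of all UMIs. By structural class, 11 fibrillar members held 50.8% of the collagen level, 6 basement membrane network members 24.0%, 3 short-chain network members 18.3%, 9 FACIT members (collagens attached to the surface of fibrils) 4.81% and 6 beaded filament members 1.49%.

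The promoters of 4 members are shown because these genes carry the contrasts between cell types described below. They are the windows from 250 bases before to 50 bases after the RefSeq start site (GRCm38.p6), 5′ to 3′ on the gene's strand. Capitals mark matches, on either strand, to CCAAT (the CCAAT box) or GGGCGG (the GC box); TATAAA (the TATA box) was searched too and had no match here. Col4a1 (minus strand, chr8:11312777-11313076) and Col4a2 (plus strand, chr8:11312555-11312854) are transcribed away from each other from starts 21 bases apart, so their windows overlap and share a GC box. Col4a4 lies on the minus strand (chr1:82586800-82587099) and starts 72 bases from the oppositely transcribed Col4a3 in the GENCODE annotation. Col1a2 lies on the plus strand (chr6:4505368-4505667).
Col4a1: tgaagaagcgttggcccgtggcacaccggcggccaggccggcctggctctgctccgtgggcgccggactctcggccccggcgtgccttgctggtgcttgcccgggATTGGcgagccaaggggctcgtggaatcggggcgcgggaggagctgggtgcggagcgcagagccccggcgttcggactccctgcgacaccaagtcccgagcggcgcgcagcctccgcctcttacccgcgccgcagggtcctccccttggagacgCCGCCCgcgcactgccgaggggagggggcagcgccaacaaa
Col4a2: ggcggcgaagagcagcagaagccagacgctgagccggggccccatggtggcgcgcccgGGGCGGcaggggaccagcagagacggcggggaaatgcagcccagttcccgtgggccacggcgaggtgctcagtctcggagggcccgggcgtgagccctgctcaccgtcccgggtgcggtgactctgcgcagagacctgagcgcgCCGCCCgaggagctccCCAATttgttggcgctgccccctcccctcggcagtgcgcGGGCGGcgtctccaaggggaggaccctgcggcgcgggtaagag
Col4a4: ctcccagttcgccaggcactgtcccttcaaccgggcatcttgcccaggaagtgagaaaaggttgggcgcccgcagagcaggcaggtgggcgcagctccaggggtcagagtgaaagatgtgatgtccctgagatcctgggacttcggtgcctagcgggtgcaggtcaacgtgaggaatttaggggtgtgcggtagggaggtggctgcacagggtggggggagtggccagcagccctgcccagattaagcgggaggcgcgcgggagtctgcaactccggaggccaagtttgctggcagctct
Col1a2: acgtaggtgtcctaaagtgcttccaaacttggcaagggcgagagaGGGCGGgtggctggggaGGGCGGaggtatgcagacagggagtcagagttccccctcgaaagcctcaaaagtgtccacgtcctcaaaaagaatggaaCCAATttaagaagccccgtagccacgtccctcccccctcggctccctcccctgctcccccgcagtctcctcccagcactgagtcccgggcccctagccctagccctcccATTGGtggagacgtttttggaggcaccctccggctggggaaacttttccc

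Windows were at hand for 35 of the 44 members. The GC box was found in 22 of these 35 members and in 35.7% of all 32851 windows. The CCAAT box was found in 13 of 35 members and in 37.4% of all windows, and TATAAA in 5 of 35 members and in 13.6% of all windows. The 3 members with more than 1 window were counted once, if any of their windows held the motif. The motif counts describe these windows only.

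Col8a1, a short-chain collagen of vessel walls and of the corneal Descemet's membrane, had the highest mean level (929 CPM). It measured 825, 1085 and 1048 CPM for Dram2 wt/wt, and 893, 783 and 944 CPM for Dram2 ko/ko. The genotypes overlapped, with Dram2 ko/ko replicate 2 lowest.

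Among the fibrillar members, Col5a2, a chain of the type V collagen that starts collagen fibrils, measured 939, 889 and 1013 CPM for Dram2 wt/wt, and 960, 923 and 852 CPM for Dram2 ko/ko. Col1a1, the major fibril chain of type I collagen, measured 542, 730 and 644 CPM for Dram2 wt/wt, and 621, 505 and 566 CPM for Dram2 ko/ko. Its partner chain Col1a2 measured 513, 697 and 657 CPM for Dram2 wt/wt, and 553, 534 and 573 CPM for Dram2 ko/ko. In all 3 genes the genotypes overlapped. The ratio of Col1a2 to Col1a1 was 0.980 ± 0.060 (SD, n = 6) over the whole samples. The other fibrillar members above 10 CPM were Col3a1 (194 CPM), which co-assembles with type I fibrils, Col11a1 (135 CPM) and Col5a1 (114 CPM), both involved in starting fibrils, Col2a1 (46.0 CPM), the main collagen of cartilage and vitreous, and Col27a1 (10.4 CPM).

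Of the basement membrane network, Col4a1 measured 851, 870 and 951 CPM for Dram2 wt/wt, and 845, 769.5 and 867 CPM for Dram2 ko/ko. Col4a2, the other chain of the common type IV trimer, had a mean of 343 CPM. The ratio of Col4a1 to Col4a2 was 2.52 ± 0.13 (SD, n = 6). Col4a5 was at 31.4 CPM, and Col4a4, Col4a6 and Col4a3 were at 2.05, 1.38 and 1.29 CPM.

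Chains that share a protein were at like or unlike levels. Col5a2 outnumbered Col5a1 by 8.43 ± 1.89, Col6a3 stood at 0.951 ± 0.072 and Col6a2 at 0.227 ± 0.012 of Col6a1, and Col4a4 at 1.65 ± 0.24 times Col4a3 (SD, n = 6). Col8a2, the partner of Col8a1, was at 0.962 CPM, Col11a2, the partner of Col11a1, at 0.393 CPM, and Col4a6, the partner of Col4a5, at 1.38 CPM. Of the type IX chains, Col9a3 was at 0.969 CPM, Col9a2 at 0.266 CPM and Col9a1 at 0.0772 CPM.

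The highest members of the remaining classes were lower. Col12a1, a FACIT member, measured 223, 262 and 247 CPM for Dram2 wt/wt, and 222, 188 and 208 CPM for Dram2 ko/ko. Col6a1, a chain of the beaded filaments of type VI collagen, measured 32.8, 40.4 and 36.4 CPM in Dram2 wt/wt and 32.6, 32.9 and 36.8 CPM in Dram2 ko/ko. Col18a1, a multiplexin of basement membranes from which endostatin is cut, measured 29.4, 24.9 and 18.2 CPM in Dram2 wt/wt and 16.1, 22.3 and 28.3 CPM in Dram2 ko/ko. The Col12a1 values did not overlap between genotypes, and those of Col6a1 and Col18a1 did. Col7a1, the anchoring fibril collagen, measured 5.61, 5.84 and 5.17 CPM for Dram2 wt/wt, and 4.28, 4.40 and 7.38 CPM for Dram2 ko/ko. The highest transmembrane member, Col23a1, measured 0.409, 0.577 and 0.179 CPM for Dram2 wt/wt, and 0.599, 0.322 and 1.16 CPM for Dram2 ko/ko. Col28a1, outside the larger classes, measured 0.828, 0.426 and 0.342 CPM for Dram2 wt/wt, and 0.124, 0.456 and 0.281 CPM for Dram2 ko/ko. The genotypes overlapped for all 3 of them. These last members are rare over the whole sample, and the cell types below show where their UMIs lay.

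**Figure D1:**
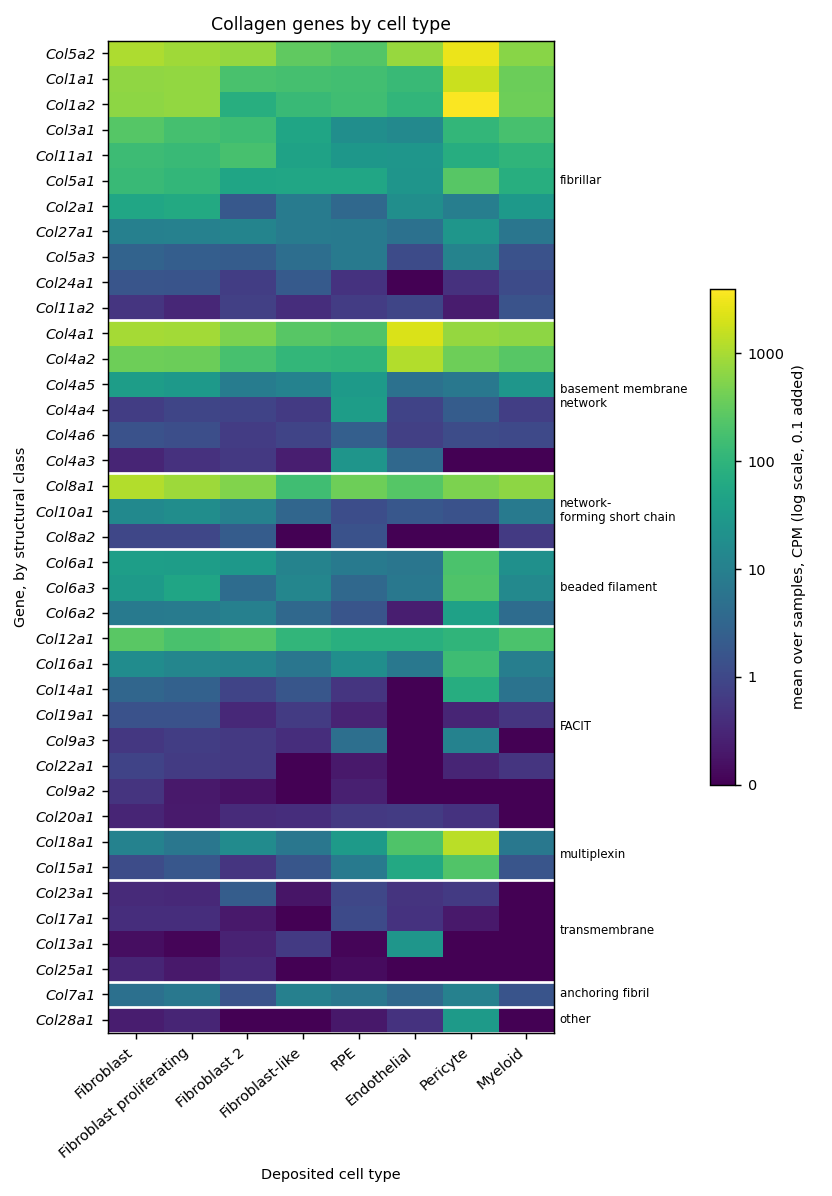
Mean level over samples, in CPM on a log colour scale with 0.1 added, of the 39 collagen genes with 60 or more UMIs (rows, by structural class) in the 8 deposited cell types (columns). The Pericyte column is the brightest for 16 genes, and the bright cells in the RPE column for Col4a3 and Col4a4 and in the Endothelial column for Col13a1 are each the brightest of their row.

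Fibroblast cells held 62.0% of all collagen UMIs and Fibroblast proliferating cells 27.5%, the types with the most cells. The summed collagen level was 0.590% ± 0.056 of UMIs in Fibroblast cells, 0.528% ± 0.048 in Fibroblast proliferating, 0.294% ± 0.035 in Fibroblast 2, 0.512% ± 0.041 in Endothelial and 0.163% ± 0.036 in RPE cells (SD, n = 6 each). It was highest in the Pericyte-labelled cells at 1.28% ± 0.14, where the lowest sample had 1.04%, above every sample of the other 7 types. It was 0.363% ± 0.070 (SD, n = 4) in Myeloid cells, where 2 samples held under 10 cells, and 0.147% ± 0.043 (SD, n = 6) in Fibroblast-like cells. A median Fibroblast-like cell held 4825 UMIs and a median Fibroblast cell 26108 UMIs. Over the 18 members with a mean of 10 CPM or more, the median ratio of Fibroblast-like to Fibroblast was 0.290, and over the 8833 genes of that level it was 0.649.

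Each member with at least 60 UMIs was then placed in the cell type with its highest mean. This type was the Pericyte-labelled cells for 16 of the 39 members (17.6% of all 22404 genes with as many UMIs), Fibroblast for 6 (4.28% of genes), Endothelial (19.6%), RPE (12.5%) and Fibroblast 2 (12.7%) for 4 each, Fibroblast proliferating for 3 (10.1%), and Myeloid (12.6%) and Fibroblast-like (10.6%) for 1 each. In the Pericyte-labelled cells, 12 members were highest in all 6 samples (2.87% of genes), and for 11 the lowest sample lay above the highest sample of the next type (2.06% of genes). In Endothelial cells 3 members were highest in all 6 samples (3.8% of genes), all without overlap (2.8% of genes). Of these, Col13a1 reached 60 UMIs only through the Endothelial cells, which held 94 of its 132 UMIs.

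In the Pericyte-labelled cells the type I chains and Col5a2, all fibrillar, were the members with the highest mean levels. Col1a2 measured 3849, 3359 and 4796 CPM for Dram2 wt/wt, and 4547, 2754 and 2788 CPM for Dram2 ko/ko, 5.25 times the mean of Fibroblast proliferating cells, the next type. Col5a2 was at 2924 ± 254 CPM, Col1a1 at 1729 ± 256 CPM and Col5a1 at 254 ± 51 CPM (SD, n = 6). The ratio of Col1a2 to Col1a1 was 2.13 ± 0.40 in these cells and 0.962 ± 0.065 in Fibroblast cells, without overlap between their samples. Col3a1 went the other way, with 110 ± 87 CPM in the Pericyte-labelled cells and 241 ± 67 CPM in Fibroblast cells.

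Both multiplexins were highest there on average. Col18a1 measured 1543, 1280 and 1404 CPM for Dram2 wt/wt, and 1133, 948 and 1519 CPM for Dram2 ko/ko, against 218 ± 77 CPM in Endothelial and 10.7 CPM in Fibroblast cells. Of all Col18a1 UMIs, 43.7% came from the Pericyte-labelled cells, which held 0.797% of all UMIs. Col15a1, the other multiplexin, was at 224 ± 88 CPM there and at 58.9 ± 47.7 CPM in Endothelial cells, and their samples overlapped. Col28a1, a collagen known from peripheral nerve, was more concentrated, with 190 of its 279 UMIs in these cells. It measured 63.1, 32.2 and 36.3 CPM in Dram2 wt/wt and 11.3, 22.4 and 26.8 CPM in Dram2 ko/ko. In Fibroblast 2 it had 0 UMIs, which allows up to 0.0448 CPM.

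All 3 common type VI chains were also highest in the Pericyte-labelled cells in every sample, with Col6a1 at 202 ± 77 CPM, Col6a3 at 211 ± 23 CPM and Col6a2 at 42.1 ± 15.7 CPM (SD, n = 6). In Fibroblast cells they were at 37.4, 31.4 and 7.78 CPM. The FACIT members Col16a1, with 146 ± 35 CPM, and Col14a1, with 72.0 ± 48.6 CPM, were highest there as well. Col14a1 had 0 UMIs in Endothelial cells, which allows up to 0.835 CPM.

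In Endothelial cells the type IV network stood first. Col4a1 measured 2198, 2200 and 2112 CPM for Dram2 wt/wt, and 2223, 1868 and 2405 CPM for Dram2 ko/ko, 2.25 times the mean of Fibroblast cells. Col4a2 was at 1189 ± 172 CPM (SD, n = 6), 3.05 times the next type. Both were above the next type in all 6 samples without overlap. The ratio of Col4a1 to Col4a2 was 1.84 ± 0.17 in Endothelial, 1.88 ± 0.11 in Pericyte-labelled and 2.52 ± 0.11 in Fibroblast cells. The Endothelial samples lay between 1.69 and 2.14 and the Fibroblast samples between 2.39 and 2.68. The cause of this difference was not tested. Col13a1, a transmembrane collagen, had 94 of its 132 UMIs in Endothelial cells, at 25.4, 28.7 and 32.8 CPM in Dram2 wt/wt and 14.4, 25.7 and 27.0 CPM in Dram2 ko/ko. It had 0 UMIs in the Pericyte-labelled cells, which allows up to 0.562 CPM.

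In RPE cells the collagens of the fibroblast types were low, with Col8a1 at 381 ± 87 CPM, Col5a2 at 236 ± 48 CPM and Col4a1 at 211 ± 77 CPM (SD, n = 6). The chains Col4a3 and Col4a4, which form with Col4a5 the type IV trimer of some specialised basement membranes, were highest in RPE cells in all 6 samples, although for Col4a3 the lowest RPE sample overlapped with Endothelial cells. Col4a4 measured 45.7, 22.2 and 45.2 CPM in Dram2 wt/wt and 51.9, 44.6 and 9.17 CPM in Dram2 ko/ko, and the next type was at 2.08 CPM. Col4a3 measured 38.3, 20.3 and 27.2 CPM in Dram2 wt/wt and 31.2, 29.3 and 5.67 CPM in Dram2 ko/ko. Dram2 ko/ko replicate 3 was the lowest for both genes, Dram2 wt/wt replicate 2 the next, in the order of their RPE marker levels. Without Dram2 ko/ko replicate 3 the means were 41.9 ± 11.4 and 29.2 ± 6.5 CPM (SD, n = 5).

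Of all Col4a3 UMIs, 79.2% lay in RPE cells, and of all Col4a4 UMIs 69.2%. Col4a5 differed from its partners, with 32.1 ± 6.7 CPM in RPE and 36.5 ± 3.6 CPM in Fibroblast cells, which overlapped. Col4a3 shares 19.4% of its 31-base stretches near the 3′ end (the last 400 bases of each transcript) with C430014B12Rik, so part of its count is uncertain, while Col4a4 shares none with another gene. In the same Dram2 ko/ko replicate 3 other members were above all other RPE samples. Col5a1 measured 140.0 CPM there and between 12.6 and 97.4 CPM in the other 5 samples. Col5a3 measured 30.5 CPM there and between 0.464 and 12.5 CPM elsewhere, and Col15a1 33.2 CPM and between 0 and 10.2 CPM. This sample held 575 of the 1492 RPE cells and 559 CPM of 4 proliferation markers, against 85.5 to 389 CPM in the others, and 10245 CPM of 4 smooth muscle markers, against 4123 to 7941 CPM. The part of these differences in the collagen levels was not tested.

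**Figure D2:**
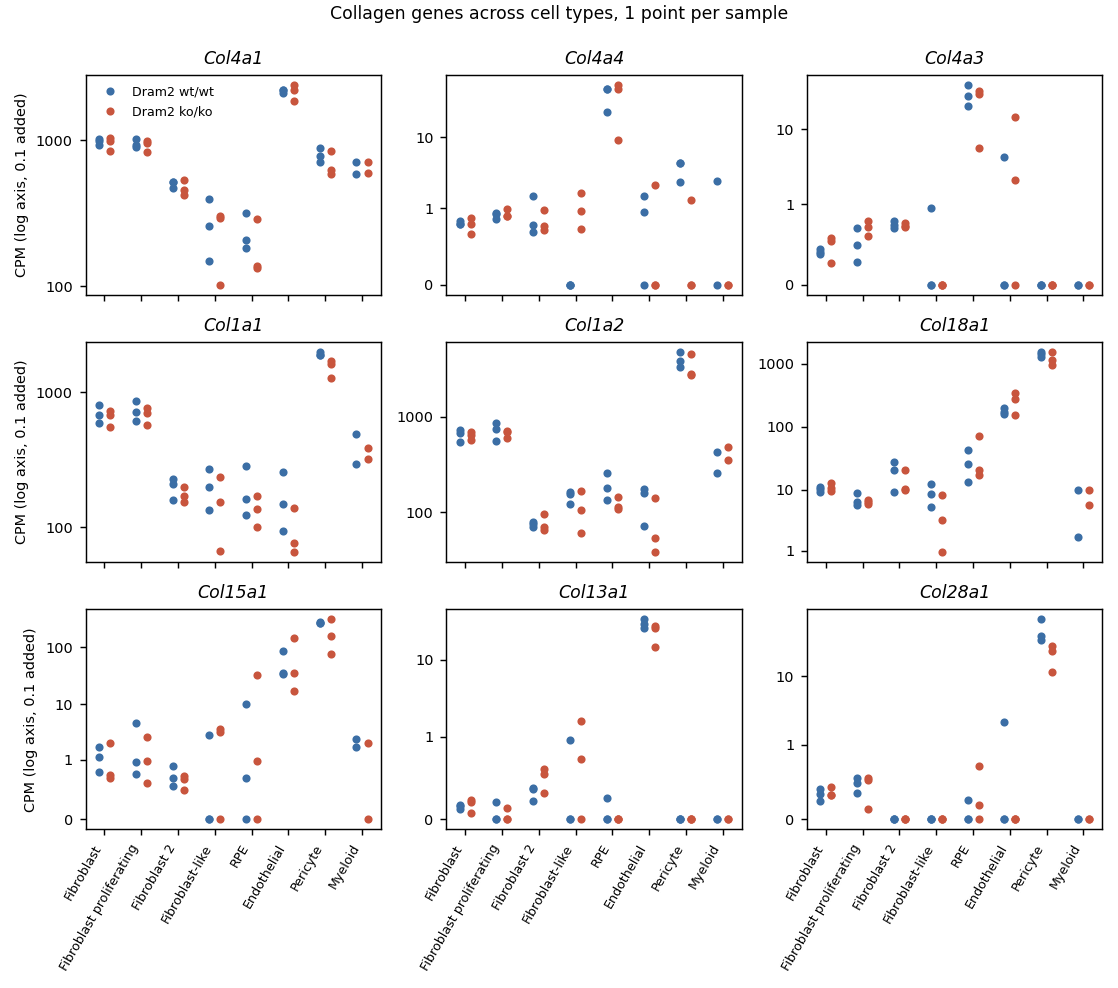
CPM on a log axis with 0.1 added, 1 point per sample and genotype, of 9 collagen genes across the 8 cell types; Myeloid has 4 samples. Col4a4 and Col4a3 are highest in RPE, with Dram2 ko/ko replicate 3 as the lowest RPE point at 9.17 and 5.67 CPM, and Col28a1 is high in the Pericyte-labelled cells.

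Fibroblast 2 differed from Fibroblast cells member by member rather than by 1 factor. Of the 18 members at 10 CPM or more, 14 were lower in Fibroblast 2 in every sample and 2, Col11a1 and Col27a1, were higher in every sample. The ratio of means ran from 0.034 for Col2a1 to 1.55 for Col18a1, with a median of 0.565, and the median over all 8833 genes was 1.01. Col1a2 stood at 76.3 ± 10.5 CPM in Fibroblast 2 and at 645 ± 73 CPM in Fibroblast cells, and Col1a1 at 187 ± 30 and 673 ± 88 CPM (SD, n = 6). The ratio of Col1a2 to Col1a1 was therefore 0.413 ± 0.054 in Fibroblast 2. Col6a3 was at 4.19 ± 0.75 CPM, against 31.4 ± 0.9 CPM, while its partner chain Col6a1 was at 27.8 ± 4.1 CPM, against 37.4 ± 4.2 CPM. Col11a1 was at 182 ± 25 CPM, against 144 ± 14 CPM.

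Fibroblast proliferating cells, marked by 929 CPM of 4 proliferation genes, were closest to Fibroblast cells, with a median ratio of 0.935 over the 18 members. Col6a3 was at 50.9 ± 6.3 CPM there, above Fibroblast cells, and Col8a1 at 835 ± 92 CPM, below the 1151 ± 166 CPM of Fibroblast cells.

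In Myeloid cells the 18 members stood at 0.470 to 0.769 of their Fibroblast level, with a median of 0.589. These cells held 11497 CPM of 6 myeloid markers and also 2407 CPM of 6 fibroblast markers, against 3762 CPM in Fibroblast cells. The ratio of Col1a2 to Col1a1 was 1.03 ± 0.19 (SD, n = 4) in Myeloid cells. The part of these fibroblast transcripts in the collagen levels of Myeloid cells was not tested.

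Sub-cluster 1 was nearly all Fibroblast cells (97.6%), sub-cluster 2 Fibroblast proliferating (98.7%), sub-cluster 3 mostly Fibroblast 2 (78.2%), sub-cluster 4 Fibroblast (99.0%) and sub-cluster 5 Fibroblast-like cells (94.0%). Sub-clusters 6 and 7, with 477 and 214 cells, had the highest summed collagen levels, 1.15% ± 0.14 and 0.940% ± 0.218 of UMIs, against 0.605% ± 0.060 in sub-cluster 1 (SD, n = 6). Sub-cluster 7 was mostly Fibroblast cells (86.4%), and sub-cluster 6 was mixed, with 40.5% Fibroblast, 35.2% Fibroblast-like and 24.1% Fibroblast proliferating cells. Cells of sub-cluster 6 were shallow and rich in mitochondrial RNA, with a median of 4766 UMIs and sample medians of 17.1% to 21.5% mitochondrial UMIs, whereas sub-cluster 1 had 27032 UMIs and 2.51% to 3.26%. Of the 18 members, 14 were higher in sub-cluster 6 than in sub-cluster 1 in every sample, with a median ratio of 2.32, while the median over all 8833 genes was 0.820. Sub-cluster 5, with a median of 5856 UMIs per cell, went the opposite way, with a median ratio of 0.185 over the members and 0.660 over all genes. Sub-clusters 8, in which at least 90.3% of the UMIs of a median cell were mitochondrial, and 9 had too few cells in some samples and were not tested.

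Sub-cluster 7 differed from sub-cluster 1 in several members, and other sub-clusters shared part of these differences. Col18a1 measured 154, 125 and 90.5 CPM in Dram2 wt/wt and 179, 120.4 and 213 CPM in Dram2 ko/ko, against 4.60 CPM in sub-cluster 1. Col10a1, known from hypertrophic cartilage, lay between 53.8 and 199 CPM, against 8.47 ± 0.94 CPM, and Col3a1 at 699 ± 311 CPM, against 212 ± 68 CPM (SD, n = 6). Col6a3 was at 190 ± 77 CPM, against 30.7 ± 2.1 CPM. All 4 were higher than in sub-cluster 1 in every sample. So were Col6a3 and Col3a1 in sub-cluster 6, at 101 and 501 CPM, and Col18a1 in sub-cluster 4. Col11a1, at 25.2 ± 11.5 CPM, and Col2a1, at 2.26 ± 3.00 CPM, were lower in every sample, against 142 ± 15 and 55.2 ± 7.5 CPM in sub-cluster 1. Sub-cluster 7 held 14053 CPM of 6 fibroblast markers and 374 CPM of 6 pericyte markers, against 3171 and 70.5 CPM in sub-cluster 1, and 11.3 to 31.2 CPM of 5 cartilage markers, against 13.7 to 18.2 CPM. The same pericyte markers were at 380 CPM in sub-cluster 4 and 170 CPM in sub-cluster 6.

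In the remaining sub-clusters, Col2a1 and Col6a3 were low in sub-cluster 3, at 2.25 ± 0.97 and 4.62 ± 0.63 CPM. Sub-cluster 4 had more Col18a1, at 43.0 ± 4.0 CPM, and more Col16a1, at 42.8 ± 7.8 CPM (against 13.9 CPM in sub-cluster 1), and less Col4a1, at 382 ± 33 CPM (against 1017 ± 88 CPM). By highest mean, 22 of the 39 members were in sub-cluster 6 (27.3% of genes) and 10 in sub-cluster 7 (10.8% of genes). The 39 members were chosen on their UMIs over all cells, so some had few in sub-cluster 6, such as Col4a3 with 3 and Col28a1 with 2 UMIs. Without overlap with the next sub-cluster these were 4 members (3.58% of genes) and 2 members (0.714% of genes).

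**Figure D3:**
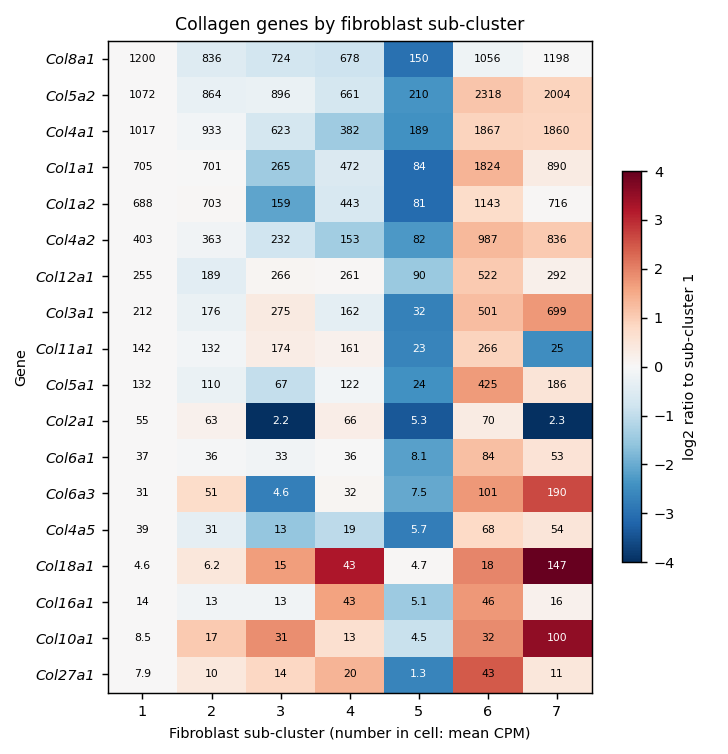
Colour gives the log2 ratio of the mean level to that of sub-cluster 1, and the number in each cell the mean over samples in CPM, for the 18 collagen genes of 10 CPM or more in fibroblast sub-clusters 1 to 7. Sub-cluster 5 is below sub-cluster 1 for all genes but Col18a1, at 4.7 against 4.6 CPM, and sub-cluster 7 is above it most for Col18a1, Col10a1 and Col6a3.

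The genotypes were compared in sums of UMIs over all cells of each sample, with voom-limma and Benjamini-Hochberg adjustment over all tested genes. Fewer cells of a type and less RNA per cell cannot be told apart in such sums. Of the 44 members, 39 passed the filter on low counts and 5 (Col9a1, Col26a1, Col6a4, Col6a5 and Col6a6, with 0 to 52 UMIs) did not. None of the 39 was called at an adjusted p under 0.05, as for all genes (0.0% of 22580). EdgeR and DESeq2 called 0 members too, while DESeq2 called 1.67% of all genes. At an unadjusted p under 0.05 there were 2 members, both lower in Dram2 ko/ko, against 7.01% of all genes.

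The 2 members were Col12a1, whose log2 change was -0.23 (SE 0.09, adjusted p 0.586), and Col4a2, with -0.21 (SE 0.09, adjusted p 0.690). Col4a2 measured 355, 357 and 395 CPM for Dram2 wt/wt, and 326, 284 and 339 CPM for Dram2 ko/ko. They were the only members whose Dram2 ko/ko samples all lay below every Dram2 wt/wt sample, as for 7.33% of genes. The rare transmembrane member Col25a1 (111 UMIs) was the only one whose Dram2 ko/ko samples all lay above (4.2% of genes), and its log2 change was 0.36 (SE 0.29, adjusted p 0.920).

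The other 8 of the 10 highest members overlapped between genotypes. Their log2 fold changes lay between -0.22 for Col3a1 and 0.08 for Col11a1, and each 95% interval included 0. For Col8a1 the interval was -0.42 to 0.12, for Col1a1 -0.42 to 0.11, for Col1a2 -0.40 to 0.12, for Col4a1 -0.28 to 0.10, for Col5a2 -0.25 to 0.17 and for Col5a1 -0.59 to 0.22. The interval of Col3a1, -0.69 to 0.24, was the widest of the 10, and Dram2 wt/wt replicate 2 was its highest sample at 288 CPM. Without that sample its value was 0.0034.

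Of the 39 tested members, 30 had a negative and 9 a positive log2 fold change, with a median of -0.11, and the median over all genes was 0.0046. The count of negative members was 29 with RLE size factors, 32 with library size alone and 24 without Dram2 wt/wt replicate 2, where the median was -0.024. Over the whole samples the summed collagen level was 0.487%, 0.572% and 0.566% of UMIs in Dram2 wt/wt. In Dram2 ko/ko it was 0.509%, 0.458% and 0.508%, which overlapped. Fibroblast markers also overlapped between genotypes, at 3094 to 3823 CPM for Dram2 wt/wt, and 3515 to 3924 CPM for Dram2 ko/ko. The 5 cartilage markers did not, at 17.4 to 19.6 CPM in Dram2 wt/wt and 20.7 to 24.6 CPM in Dram2 ko/ko, beside Col2a1 at 46.0 ± 4.5 and 45.9 ± 8.9 CPM (SD, n = 3). By cell type the sum of these markers was highest in RPE cells, at 96.3 CPM, where 2 of the 5 had 0 UMIs. Fibroblast 2 was next at 25.8 CPM, where 3 of the 5 had 0 UMIs.

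**Figure D4:**
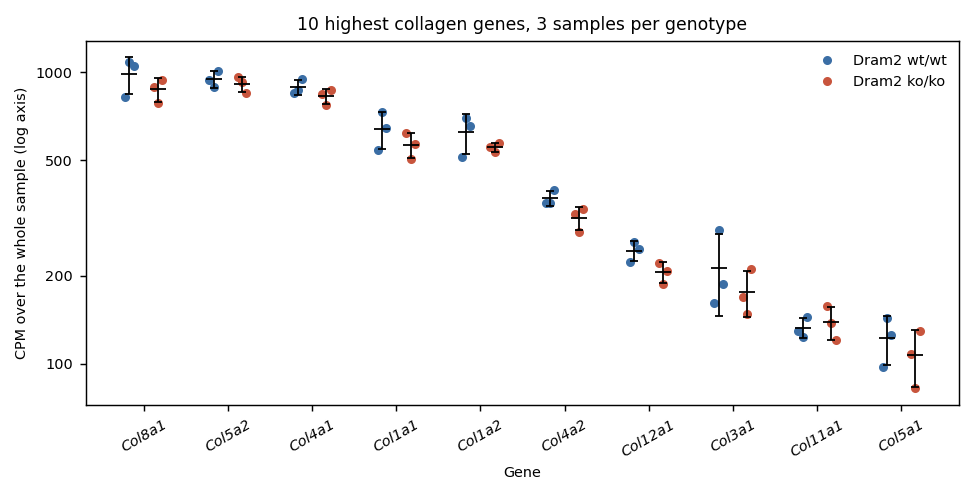
CPM over the whole sample (log axis) of the 10 highest collagen genes, with 1 point per sample, 3 samples per genotype, and the mean ± SD as a black bar. The genotypes overlap for all but Col4a2 and Col12a1, and the Dram2 wt/wt point at 288 CPM stands high for Col3a1.

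Within the 8 cell types the members were tested 172 times in all, and 0 were called, against 0.159% of all genes over the 8 fits. At an unadjusted p under 0.05 there were 14 (6.12% of all genes were that low), with 12 on the lower side in Dram2 ko/ko. EdgeR and DESeq2 called 0 members, while DESeq2 called 1.61% of all genes in Fibroblast and 1.77% in Fibroblast proliferating cells.

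In Fibroblast cells (37 members tested, 0.00503% of genes called) Col10a1 measured 12.6, 12.3 and 14.0 CPM in Dram2 wt/wt and 17.7, 14.7 and 20.8 CPM in Dram2 ko/ko. The log2 change was 0.43 (SE 0.14, adjusted p 0.376), and it was the only member whose Dram2 ko/ko samples all lay above (4.57% of genes). Col11a2, the second chain of the minor cartilage fibril collagen, was the only one below (7.01% of genes), at -0.35 (SE 0.23, adjusted p 0.920) with 152 UMIs.

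In Fibroblast 2 (24 members tested, 0.222% of genes called) Col2a1 measured 2.15, 3.41 and 1.55 CPM in Dram2 wt/wt and 1.20, 1.20 and 1.13 CPM in Dram2 ko/ko. The log2 change was -0.89 (SE 0.32, adjusted p 0.606), from 111 UMIs. Col4a5 also lay below without overlap (6.6% of genes) and Col16a1 above (4.81% of genes), with log2 fold changes of -0.16 (adjusted p 0.891) and 0.05 (adjusted p 0.960). In Fibroblast proliferating cells (32 members tested, 0.624% of genes called) all members overlapped between genotypes (4.76% of genes lay above and 6.52% below without overlap).

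In RPE cells (21 members tested, 0.0% of genes called) Col3a1 showed a log2 change of -1.23 (SE 0.57, adjusted p 1.00) and Col8a1 of -0.49 (SE 0.23, adjusted p 1.00), with 4 members in all below without overlap (5.09% of genes). Col4a4 and Col4a3 overlapped between genotypes. The 6 fibroblast markers summed to 421, 664 and 237 CPM there for Dram2 wt/wt, and 100.01, 372 and 244 CPM for Dram2 ko/ko, which overlapped. Their part in the RPE values was not tested. In the Pericyte-labelled cells 5 of 19 members had an unadjusted p under 0.05, all lower in Dram2 ko/ko, against 5.9% of all genes there, and 0 were called (0.0118% of genes). They were picked out after their values were seen. They were Col28a1 at -1.10 (SE 0.35, adjusted p 0.620), Col3a1 at -1.34 (SE 0.44, adjusted p 0.621), Col11a1 at -0.69, Col15a1 at -0.77 and Col1a1 at -0.34 on the log2 scale, of which Col28a1, Col11a1 and Col1a1 lay below without overlap (5.68% of genes). The summed collagen level of these cells was 1.35%, 1.33% and 1.45% of UMIs in Dram2 wt/wt and 1.26%, 1.04% and 1.27% in Dram2 ko/ko. It did not overlap between genotypes and was picked out after its values were seen. In the other cell types the summed level overlapped between genotypes. The Pericyte-labelled sums rested on 17 to 124 cells per sample. Their 6 fibroblast markers summed to 208, 812 and 232 CPM for Dram2 wt/wt, and 93.1, 655 and 196 CPM for Dram2 ko/ko, which overlapped, and their part was not tested.

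An interaction term compared the genotype effect in Fibroblast cells with that in 3 other types. No member was called for Fibroblast 2 (35 members, 3 at an unadjusted p under 0.05, against 5.13% of genes, with 0.0% of genes called), Fibroblast proliferating (36 members, 2, against 3.72%, with 0.0101% called) or RPE cells (38 members, 4, against 1.86%, with 0.0% called).

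Among the 7 sub-clusters tested, 1 of 162 member tests was called (0.336% of all genes over the 7 fits; 15 members at an unadjusted p under 0.05, 8 lower and 7 higher in Dram2 ko/ko, against 6.53% of genes). This was Col6a3 in sub-cluster 7, the longest chain of the common type VI trimer. It measured 119.8, 151 and 117.4 CPM for Dram2 wt/wt, and 258, 188 and 305 CPM for Dram2 ko/ko. All Dram2 ko/ko samples lay above every Dram2 wt/wt sample (4.23% of genes), although the nearest, Dram2 ko/ko replicate 2 and Dram2 wt/wt replicate 2, were 188 and 151 CPM. Its log2 change was 0.98 (SE 0.20, 95% interval 0.55 to 1.40, adjusted p 0.0490) from 19 members tested, with 31 of 7711 genes called in this sub-cluster (0.402%), of which 2 were higher (0.0259%). This change was under the fold of 2 that the study's methods also required.

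The call lay at the threshold. The adjusted p was 0.0370 with edgeR (0.376% of genes called), 0.0095 with DESeq2 (0.493%) and 0.0039 when Dram2 ko/ko replicate 2 was left out (0.595%). It rose to 0.217, 0.0642 and 0.299 without Dram2 wt/wt replicates 1, 2 and 3, and 0.0907 and 0.104 without Dram2 ko/ko replicates 1 and 3, of which the last leaves batch 1 alone. In these 5 fits the log2 fold change was between 0.85 and 1.05. The sums held 13 to 79 cells per sample, and their 6 fibroblast markers summed to 10123 to 14019 CPM for Dram2 wt/wt, and 13607 to 20171 CPM for Dram2 ko/ko, which overlapped. The 5 cartilage markers, of which 3 had 0 UMIs in this sub-cluster, summed to 11.3 to 15.4 CPM for Dram2 wt/wt, and 19.1 to 31.2 CPM for Dram2 ko/ko, without overlap. The 4 smooth muscle markers summed to 11573 to 13064 CPM for Dram2 wt/wt, and 13523 to 15337 CPM for Dram2 ko/ko, also without overlap. The part of both lists in the Col6a3 result was not tested.

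The partner chains Col6a1 and Col6a2 overlapped between genotypes in sub-cluster 7, with log2 fold changes of 0.52 (SE 0.37, adjusted p 0.882) and 0.98 (SE 0.46, adjusted p 0.682). In sub-cluster 1 (0.32% of genes called) Col6a3 was at -0.14 (SE 0.08, adjusted p 0.891) and its Dram2 ko/ko samples lay below the others (6.99% of genes), and over the whole samples at -0.12 (SE 0.09, adjusted p 0.919). Of the 19 members tested in sub-cluster 7, 16 had a positive log2 fold change, with a median of 0.36, whereas in sub-cluster 1 it was 3 of 32, with a median of -0.14. The medians over all genes were 0.00079 and -0.011. In sub-cluster 7, 5 of the 19 had an unadjusted p under 0.05, all higher in Dram2 ko/ko, against 7.22% of genes. Beside Col6a3 these were Col6a2, Col1a1 at 0.63, Col1a2 at 0.56 and Col12a1 at 0.36 on the log2 scale, each with overlapping samples and picked out after their values were seen. The 2 sub-clusters come from the same 6 samples.

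In sub-cluster 5 (10 members tested, 0 of 6214 genes called, 0.0%), 5 members had an unadjusted p under 0.05, all lower in Dram2 ko/ko, against 7.48% of genes. They were singled out after their values were seen. Col3a1, with a mean level of 32.3 CPM from 167 UMIs, had the largest difference, -1.40 (SE 0.25, adjusted p 0.0733). DESeq2 called it (adjusted p 0.0228, 0.644% of genes). Col4a2 was at -0.66 (SE 0.17, adjusted p 0.226), Col1a2 at -0.76, Col1a1 at -0.74 and Col8a1 at -0.55 on the log2 scale. The Dram2 ko/ko samples of Col3a1, Col4a2 and Col12a1 all lay below those of Dram2 wt/wt (6.2% of genes). The median over the 10 members was -0.50, and over all genes it was 0.0051. The 6 fibroblast markers summed to 2409 to 3194 CPM for Dram2 wt/wt, and 2359.8 to 2938 CPM for Dram2 ko/ko, which overlapped.

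**Figure D5:**
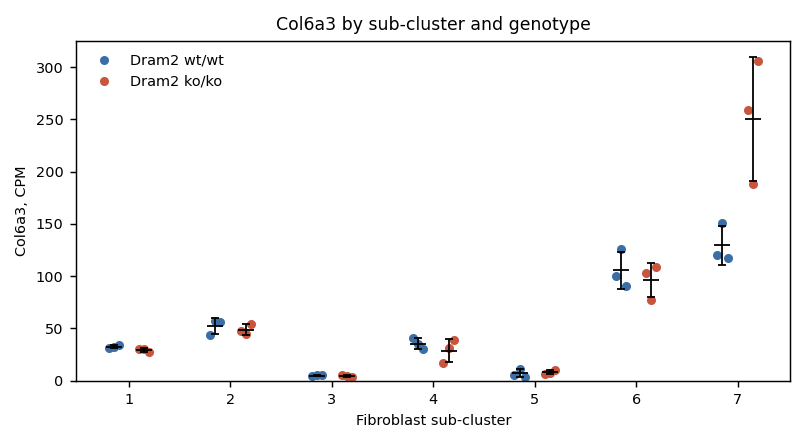
Col6a3 in CPM (linear axis from 0) in fibroblast sub-clusters 1 to 7, with 1 point per sample, 3 samples per genotype, and the mean ± SD as a black bar. In sub-cluster 7 the Dram2 ko/ko samples sit at 188 to 305 CPM, above the Dram2 wt/wt samples at 117.4 to 151 CPM, in sub-cluster 6 the samples lie between 77.4 and 125 CPM, and in sub-clusters 1 to 5 they lie between 3.76 and 57.1 CPM.

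A list of 46 genes for the enzymes, chaperones and cross-linking enzymes of collagen synthesis and for collagen receptors was read in the same fits. Over the whole samples 42 were tested and 0 were called in either direction, with 2 at an unadjusted p under 0.05, against 7.01% of all genes, of which 0.0% were called, and 0 called by edgeR. The median log2 fold change was -0.036, and 0.0046 over all genes. Serpinh1, the collagen chaperone of the endoplasmic reticulum, was at 1550 ± 84 CPM for Dram2 wt/wt, and 1558 ± 125 CPM for Dram2 ko/ko (SD, n = 3). P4hb, a subunit of prolyl 4-hydroxylase, was at 418 ± 29 and 397 ± 35 CPM, and Lox, which starts cross-linking, at 938 ± 84 and 896 ± 81 CPM. Their log2 fold changes were 0.022, -0.061 and -0.048 with adjusted p of 0.981, 0.932 and 0.960.

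By cell type, Serpinh1 was highest in the Pericyte-labelled cells at 1978 ± 48 CPM and Fibroblast proliferating cells at 1844 ± 136 CPM, which overlapped, and was at 760 ± 61 CPM in Fibroblast 2 (SD, n = 6). Lox was at 1050 ± 63 CPM in Fibroblast cells and at 149 ± 145 CPM in the Pericyte-labelled cells, where the collagen level was highest.

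Crtap, a subunit of the prolyl 3-hydroxylation complex, was called by DESeq2 over the whole samples (adjusted p 0.0151), as were 1.67% of all genes. DESeq2 also called it in Fibroblast (adjusted p 0.0287, 1.61% of genes) and Fibroblast proliferating cells (adjusted p 0.0332, 1.77% of genes) and in sub-clusters 1 (adjusted p 0.0256, 1.58% of genes) and 2 (adjusted p 0.0378, 1.77% of genes). It was named after its values were seen. Crtap measured 12.1, 16.5 and 13.3 CPM in Dram2 wt/wt and 10.5, 8.68 and 8.28 CPM in Dram2 ko/ko, which lay below without overlap, as did 7.33% of all genes. With voom-limma its log2 change was -0.59 (SE 0.14, adjusted p 0.184), and among the voom-limma alternatives it was called in sub-cluster 1 without Dram2 ko/ko replicate 1 (adjusted p 0.0385, 1.27% of genes).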

How the data were processed

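Libraries were prepared with the 10x Genomics 3′ v2 chemistry. Per the labels' processing notes Cell Ranger 3.1.0 and GRCm38 were used, and per the study's methods only exons were counted. The deposited counts are whole UMIs for each gene in each cell, not normalised by the authors, and come with a table of sample, genotype, batch, cell type and fibroblast sub-cluster for each cell. The cells left after the authors' filters were used as deposited, no doublets were removed, and cells carry running numbers, so barcodes shared between libraries could not be counted. UMAP coordinates were not used here.

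Counts were summed over cells per sample and cell type or sub-cluster where 10 or more cells were present. Sums were filtered with filterByExpr, scaled by TMM factors (edgeR 4.0.16) and then tested for genotype by voom-limma in R 4.3.3 (limma 3.58.1), with Benjamini-Hochberg adjustment over all genes tested in a fit and a threshold of 0.05. The study's methods also required a fold change above 2, which was not applied here. Interaction fits held the sample as a factor. Myeloid cells were compared with 2 samples per genotype. CPM used the total UMIs of a sum. A count of 0 was given the limit of 3 counts. The fits were tested on simulated data for whole samples, Fibroblast cells, RPE cells and the interaction of these cell types. No sub-cluster fit was simulated. With this chemistry reads are expected at the 3′ end, outside the deleted exon, so the level of Dram2 does not check the labels. Read positions were not examined. Dram2 measured 33.4, 39.6 and 38.1 CPM in Dram2 wt/wt and 30.7, 28.3 and 30.1 CPM in Dram2 ko/ko, lower without overlap, as for 7.33% of genes. Gene positions are from GENCODE M21 and promoters from RefSeq.

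All members were accounted for. Levels in every sample were given for members of 500 CPM or more and for the highest member of a class and genotype values for the 10 highest members, for called members and for those with the largest changes without overlap, up to 3 each way in whole samples and 2 in Fibroblast, Fibroblast 2, Fibroblast proliferating and RPE. The members, the lists and the tests were chosen with earlier results of these data known. Alternatives were the edgeR quasi-likelihood test, DESeq2 1.42.0, other size factors, no filter on low counts, a filter on cells (at least 500 genes and at most 20% mitochondrial UMIs), batch as a covariate, the replicate number as a block and leaving out each sample.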

Additional observations from a re-analysis of the deposited data

Results flagged for a closer look

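The Col6a3 values of the genotypes were ordered in opposite ways in 2 fibroblast sub-clusters, of which sub-cluster 7 passed the test and sub-cluster 1 did not. In sub-cluster 1 all Dram2 ko/ko samples lay below every Dram2 wt/wt sample (log2 fold change -0.14), and in sub-cluster 7 all lay above (0.98). The difference between the sub-clusters was tested with an interaction term chosen after seeing the data. It was 1.12 on the log2 scale (SE 0.26) with an adjusted p of 0.908 by voom-limma, where 0 of 17301 genes passed, and with an adjusted p of 3.2e-08 by edgeR's quasi-likelihood test, where 66 genes passed (0.381%). Leaving out 1 sample at a time gave differences of 0.94 to 1.35 with adjusted p of 0.657 to 1.00 by voom-limma. The sub-clusters share their 6 samples. With voom-limma 8 of 31 members had an unadjusted p under 0.05 for this difference, against 5.27% of genes, and with edgeR 6 members were called: Col6a3, Col3a1, Col1a1, Col1a2, Col12a1 and Col8a1, all with a positive difference.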

How the results depend on the processing

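Limits were few cells in rare types, 1 sample in batch 2 and replicate numbers that do not pair samples: same-numbered samples had correlations of 0.0987, -0.43 and 0.028 of their deviations. With the replicate block 0 members were called in sub-clusters, where Col6a3 had an adjusted p of 0.0910, and no other call changed. The count of called members was 0 over whole samples in every alternative. By cell type it was 1 without the filter on low counts (Col2a1 in Myeloid) and 0 to 1 when 1 sample was left out (Col3a1 in Myeloid without Dram2 wt/wt replicate 3, which leaves 1 Dram2 wt/wt sample, assumed to vary like the 2 of Dram2 ko/ko). Myeloid had 2 samples per genotype. By sub-cluster it was 2 with DESeq2 (Col6a3, higher in Dram2 ko/ko in sub-cluster 7, and Col3a1, lower in sub-cluster 5). When 1 sample was left out it was 0 to 2, with 2 (Col6a3 and Col3a1, both higher in sub-cluster 7) without Dram2 ko/ko replicate 2. For the interactions with Fibroblast cells it was 0 to 1 (Col18a1 in Fibroblast 2 without Dram2 wt/wt replicate 1), and for synthesis, processing and receptor genes, over whole samples and cell types, 3 with DESeq2 (Crtap). Without the filter on low counts Tll1 was called in Myeloid too. The shares of all genes called in these Myeloid and Fibroblast 2 fits are not given, so these counts cannot be set against them. The causes were not tested. The summed level changed to 0.103% of UMIs in Fibroblast-like and 1.32% in sub-cluster 6 with the cell filter, and to 0.278% in Myeloid as a mean over cells. As a share of non-mitochondrial UMIs, chosen after seeing the data, it was 1.43% in sub-cluster 6 and 0.394% in sub-cluster 8. Near 0, the sign reversed over whole samples for Col5a2 with batch as a covariate (0.018), and without 1 sample at a time the values were -0.10 to 0.019 for Col5a2, -0.39 to 0.0034 for Col3a1 and -0.025 to 0.18 for Col11a1.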
